A study of Homo sapiens with 9 samples.

Results

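The genes examined here were 10 genes of pericellular proteolysis, the cleavage of proteins at the cell surface and close to it, in the LIM1215 model of acquired cetuximab resistance. They were chosen by name and are the serine proteases ST14 (matriptase), TMPRSS2, TMPRSS4, PRSS8 (prostasin) and PRSS12 (neurotrypsin), the Kunitz-type inhibitors SPINT1 (HAI-1) and SPINT2 (HAI-2), the plasminogen activators PLAU (urokinase) and PLAT (tissue-type activator), and the urokinase receptor PLAUR. Each symbol named 1 row among the 58920 genes of the count tables, and all 10 genes were among the 19102 genes that had enough counts to be tested. LIM1215 is a human colorectal cancer cell line, and cetuximab is an antibody against the epidermal growth factor receptor. LIM1215-R1 and LIM1215-R2, labelled Resistant_1 and Resistant_2, were selected independently from it with rising cetuximab concentrations over months, and LIM1215-parental (Parental) was kept alongside without the antibody. All 3 lines were in culture without drug treatment when RNA was taken, the resistant lines are mixed populations and not clones, and each line has 3 libraries of poly(A) RNA. The resistant lines are called R1 and R2 from here on. The study calls these libraries technical replicates, so that p-values describe the spread between libraries, and a difference between lines and a difference between cultures or harvests cannot be told apart.

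ST14, TMPRSS2 and TMPRSS4 are type II transmembrane serine proteases, which carry their catalytic domain on the outside of the cell, and PRSS8 is tethered to the membrane by a lipid anchor. In epithelia, matriptase and prostasin activate each other's precursors, HAI-1 and HAI-2 block both, and their substrates include epithelial sodium channel subunits, protease-activated receptor 2 and the precursor of hepatocyte growth factor. Urokinase, bound to its receptor at the cell surface, turns plasminogen into plasmin. Unlike the membrane-anchored proteases, PRSS12 is secreted, and it is known from synapses, where it cleaves agrin.

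Levels are given as CPM (read counts relative to the library total), with library sizes adjusted by the TMM method, and differences between lines as log2 fold changes with their SE from edgeR's quasi-likelihood test over all 9 libraries. A gene was called at a Benjamini-Hochberg adjusted p of at most 0.01 over all genes tested, and a called gene that also changed by at least 1.5 on the log2 scale, up or down, was counted as a differentially expressed gene (DEG). Library totals lay between 13737416 and 18725014 counts, so that 3 counts, the floor used here, stood for 0.158 to 0.217 CPM. Floors and counting intervals cover counting error only. Of 9 markers of colon epithelium, 8 were counted (KRT20 was at 0 in all 9 libraries), and their summed level was 12300 to 12600 CPM in the parental line, 15800 to 16100 in R1 and 14400 to 14800 in R2. Most of the sum came from KRT8 and KRT18 (5720 and 4130 CPM in the parental line), and the markers did not move together. KRT8, KRT18, KRT19 and VIL1 were called higher in both resistant lines, EPCAM (log2 fold change -0.26 in R1 and -0.32 in R2), CDX1 (-0.85 and -0.65) and CDX2 (-0.44 and -0.54) were called lower in both, and CDH1 was called in neither. Their part in the results was not tested. Fibroblast markers reached 3.19 CPM in sum at most and endothelial markers 0.722, and COL1A2 and KDR were at 0. Leukocyte markers summed to 7.14 to 10.3 CPM in the parental line, 11.8 to 14.6 in R1 and 8.69 to 10.5 in R2, with PTPRC and CD3E at 0. This sum was nearly all CD68, with 1525 of the 1557 counts of the list. CD68 was called higher in R1 (log2 fold change 0.70, edgeR adjusted p = 9.24e-05) and was not called in R2. In bulk RNA of this kind fewer expressing cells and less RNA per cell cannot be told apart.

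Against the parental line, the system moved in several directions: PRSS12 and PLAUR rose in both resistant lines, PRSS8, TMPRSS2 and PLAU fell in both, TMPRSS4 passed the test in R2 only, and ST14, SPINT1 and SPINT2 passed in neither. In R1, 5 of the 10 genes were called, against 27.3% of all genes tested. Of these, 2 were higher, against a background of 14.0%, and 3 were lower, against 13.4%, while 2 were DEGs, against 5.14%. In R2, 6 of 10 genes were called (background 23.8%), 2 of them higher (12.3%) and 4 lower (11.6%), with 1 DEG (4.82%). The median log2 fold change of the 10 genes was 0.05 in R1 and -0.06 in R2, beside -0.01 and -0.00 for all genes tested, and the median absolute change was 0.53 and 0.66, beside 0.30 and 0.28. Increases and decreases thus stood side by side in both lines. Both comparisons use the same parental libraries, and the 10 genes were chosen with earlier results of these data known.

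**Figure D1:**
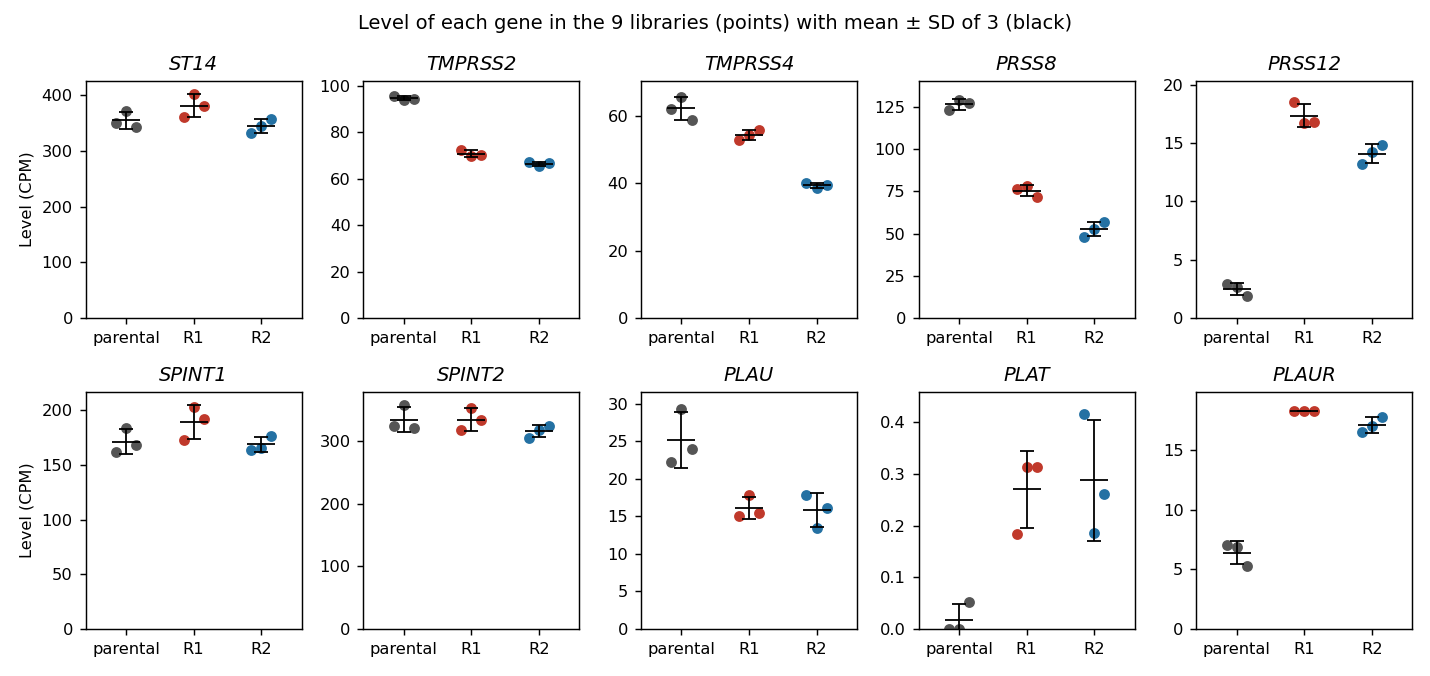
Level of each of the 10 genes in CPM (vertical axes, each starting at 0) in the 3 libraries of LIM1215-parental (grey), R1 (red) and R2 (blue), with the mean and SD in black. The resistant libraries lie above the parental ones for PRSS12 (13.2 to 18.5 CPM against at most 2.95) and PLAUR, below them for PRSS8, TMPRSS2, TMPRSS4 and PLAU, and overlap with them for ST14, SPINT1 and SPINT2.

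ST14, the gene of matriptase, lies on chromosome 11 (GRCh38, 130159782 to 130210362, plus strand). Its level was 349, 371 and 343 CPM in the parental libraries, 360, 401 and 380 in R1 and 331, 345 and 357 in R2. The libraries of the resistant lines overlapped the parental ones. The log2 fold change was 0.10 (SE 0.0464, adjusted p = 0.0853) in R1 and -0.04 (SE 0.0465, adjusted p = 0.583) in R2, so that neither difference passed the test.

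PRSS8, the gene of prostasin, occupies a short stretch of chromosome 16 (31131433 to 31135727, minus strand). It had 123, 129 and 127 CPM in the parental libraries, 76.2, 78 and 71.8 in R1 and 48.1, 53 and 56.6 in R2. The 3 lines did not overlap, with R1 between the others. The log2 fold change against the parental line was -0.75 (SE 0.0583, adjusted p = 3.8e-11) in R1 and -1.27 (SE 0.0601, adjusted p = 1.02e-15) in R2. The parental level was 1.68 times that of R1 and 2.41 times that of R2. Of the called decreases among the 10 genes, this was the largest in each line.

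TMPRSS2 (chromosome 21, 41464300 to 41531116, minus strand), best known as an androgen-regulated gene of prostate epithelium and as a protease that primes the spike proteins of respiratory viruses, had 95.7, 94.1 and 94.3 CPM in the parental line. It had 72.4, 69.8 and 70.1 CPM in R1, and 67.1, 65.3 and 66.7 in R2. The spread within each line was small (SD 0.872, 1.42 and 0.966 CPM), and every resistant library was below every parental one. The log2 fold change was -0.42 (SE 0.0526, adjusted p = 2.68e-07) in R1 and -0.51 (SE 0.0528, adjusted p = 8.66e-09) in R2. TMPRSS4 (chromosome 11, 118077012 to 118121890, plus strand), a related transmembrane protease, had 62.2, 65.7 and 58.9 CPM in the parental line, 53, 54.5 and 55.9 in R1 and 40.1, 38.6 and 39.6 in R2. The decrease was called in R2, where the log2 fold change was -0.66 (SE 0.0624, adjusted p = 1.98e-09). In R1 the libraries were also all below the parental ones, but the log2 fold change of -0.19 (SE 0.0605) had an adjusted p of 0.0142. With total counts in place of TMM it was -0.22 with an adjusted p of 0.00389, on the other side of the threshold.

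PRSS12, on chromosome 4 (118280038 to 118353003, minus strand), had the largest called change of the 10 genes. It had 50, 37 and 36 counts in the parental libraries, or 2.95, 2.67 and 1.89 CPM. It had 18.5, 16.7 and 16.8 CPM in R1 and 13.2, 14.2 and 14.8 in R2. Every resistant library was thus far above every parental one. The level was 6.99 times the parental one in R1 (log2 fold change 2.81, SE 0.138, adjusted p = 2.42e-15) and 5.66 times in R2 (log2 fold change 2.50, SE 0.142, adjusted p = 5.25e-14). It was a DEG in both lines under all 16 alternative settings. By the size of its change it stood at place 696 of the genes tested in R1 and at place 871 in R2. Agrin (AGRN), the protein that neurotrypsin is known to cleave, was named after its values were seen: it had 526 ± 41.8 CPM (SD, n = 3) in the parental line, 757 ± 60 in R1 and 679 ± 32.5 in R2. Its log2 fold change was 0.53 (SE 0.0535, edgeR adjusted p = 6.9e-09) and 0.37 (SE 0.0535, edgeR adjusted p = 3.04e-06).

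Neither inhibitor of matriptase and prostasin was called in either line. SPINT1 (chromosome 15, 40844018 to 40858207, plus strand) encodes HAI-1, a transmembrane inhibitor that binds matriptase. It had 162, 184 and 168 CPM in the parental line, 173, 203 and 192 in R1 and 164, 166 and 177 in R2. The lines overlapped, and the log2 fold change was 0.15 (SE 0.0568, adjusted p = 0.0441) in R1 and -0.02 (SE 0.057, adjusted p = 0.851) in R2. The difference in R1 passed the threshold when parental replicate 2 (0.20, adjusted p = 0.00588) or R1 replicate 1 (0.21, adjusted p = 0.00347) was left out. SPINT2 (chromosome 19, 38244035 to 38292615, plus strand), which encodes HAI-2, had 324, 358 and 321 CPM in the parental line, 317, 353 and 333 in R1 and 305, 318 and 324 in R2. Its log2 fold change was 0.00 (SE 0.0484, adjusted p = 0.984) and -0.08 (SE 0.0484, adjusted p = 0.224), with overlapping libraries in both comparisons.

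In the urokinase system, ligand and receptor moved in opposite directions. PLAU (chromosome 10, 73909177 to 73917496, plus strand), the gene of urokinase, had 22.2, 29.3 and 24 CPM in the parental libraries. It had 15, 17.8 and 15.5 CPM in R1 and 17.9, 13.4 and 16.1 in R2. All 6 resistant libraries were below the 3 parental ones. The log2 fold change was -0.64 (SE 0.108, adjusted p = 2.66e-05) in R1 and -0.66 (SE 0.108, adjusted p = 1.81e-05) in R2, and the parental level was 1.56 and 1.58 times that of the resistant lines.

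PLAUR (chromosome 19, 43646095 to 43670547, minus strand), the gene of the urokinase receptor, had 7.02, 6.86 and 5.3 CPM in the parental line. It had 18.3 CPM in each library of R1, and 16.5, 17 and 17.8 in R2. No resistant library overlapped a parental one. The level was 2.88 times the parental one in R1 (log2 fold change 1.53, SE 0.11, adjusted p = 7.6e-12) and 2.69 times in R2 (log2 fold change 1.43, SE 0.111, adjusted p = 3.48e-11). These values lie just inside and just outside the fold change limit of a DEG, while the call at the adjusted p did not depend on it. PLAUR was a DEG in R1 in 14 of 16 alternative settings, the exceptions being total counts (1.49) and the fit without parental replicate 3 (1.40), and in R2 in 1 of 16, without parental replicate 1 (1.51).

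PLAT (chromosome 8, 42174718 to 42207709, minus strand), the tissue-type plasminogen activator, was at the edge of detection with 28 counts in all. The parental libraries had 0, 0 and 1 counts, those of R1 had 3, 5 and 5, and those of R2 had 7, 3 and 4. Each resistant library had more counts than any parental one. The ratio to the parental line was 13.4 in R1, with an exact 95% counting interval of 2.02 to 571, and 14.5 in R2, with an interval of 2.2 to 611. The test did not pass the threshold in either line (adjusted p = 0.0127 and 0.0106).

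**Figure D2:**
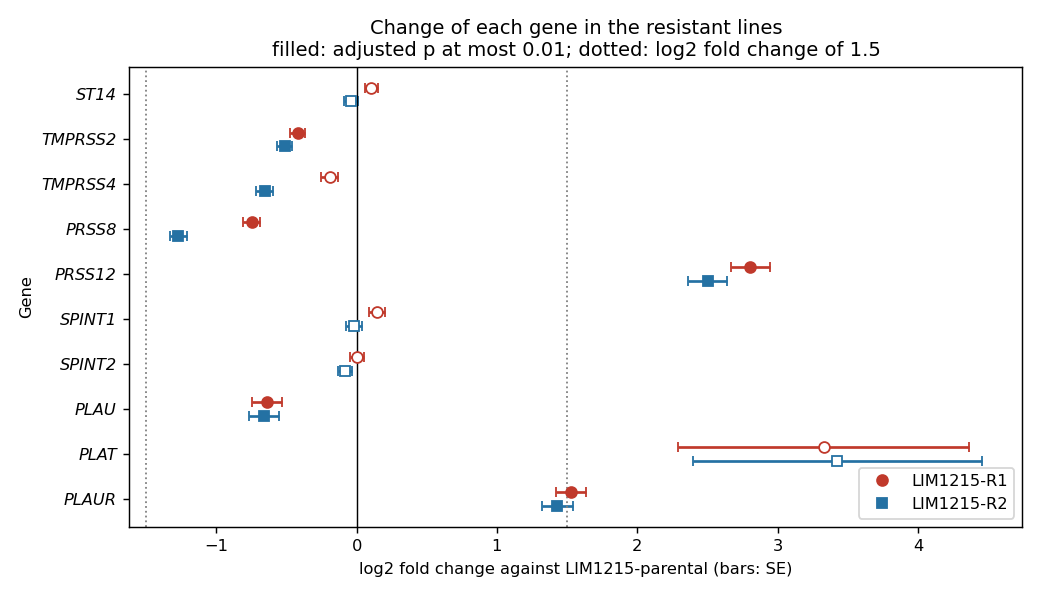
Log2 fold change against the parental line (horizontal axis) of each gene in R1 (red circles) and R2 (blue squares), with the SE as bars, filled symbols for an adjusted p of at most 0.01 and dotted lines at 1.5 in either direction. PRSS12 lies at 2.81 and 2.50 and PLAUR at 1.53 and 1.43, PRSS8 is lowest at -0.75 and -1.27, and PLAT, with 28 counts in all, has the widest bars.

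Start-site sequences from RefSeq (GRCh38.p14) were examined for only 4 of the 10 genes, PRSS12, PLAU, PLAUR and SPINT1. Bases before the start site of the 3 called genes among them are shown, 5′ to 3′ on the strand of the gene, because PLAUR and PRSS12 rose in both lines while PLAU fell. Of the PLAUR window, which GENCODE places in the first exon of a longer transcript, the stretch around an AP-1 match is given, and exonic bases were also left out for PLAU. Capitals mark matches, on either strand, to 5 motifs. The AP-1 motif was searched for as TGANTCA, where N is any base, and the motif of ETS factors as GGAAGT. The letters of the TATA box were TATAAA, and those of the cyclic AMP response element (CRE) were TGACGTCA. Factors of the SP and KLF families were represented by GGGCGG.
PLAUR, chr19:43670337-43670366, minus strand: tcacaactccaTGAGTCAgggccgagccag
PRSS12, chr4:118353004-118353253, minus strand: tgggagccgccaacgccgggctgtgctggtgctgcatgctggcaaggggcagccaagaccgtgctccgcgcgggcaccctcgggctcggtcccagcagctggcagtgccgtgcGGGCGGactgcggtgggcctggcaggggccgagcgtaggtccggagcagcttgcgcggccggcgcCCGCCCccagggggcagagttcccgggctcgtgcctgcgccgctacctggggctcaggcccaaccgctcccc
PLAU, chr10:73910882-73911103, plus strand: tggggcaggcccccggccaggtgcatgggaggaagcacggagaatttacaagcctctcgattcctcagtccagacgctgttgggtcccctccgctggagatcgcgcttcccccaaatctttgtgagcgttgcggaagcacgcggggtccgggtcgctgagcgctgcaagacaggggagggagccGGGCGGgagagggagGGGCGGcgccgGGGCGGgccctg
The PLAUR window held an AP-1 match (TGAGTCA) at -186 from the start site and an ETS match at -133. The PRSS12 window held SP/KLF matches at -137 and, on the other strand, at -72, and this PLAU window had 3 SP/KLF matches at -66, -51 and -40. A second PLAU window had no match. The windows of SPINT1, which was not called, held an AP-1 match (TGACTCA) at -6, SP/KLF matches at -110, -56 and -21 and, in the second window, an ETS match at -72. No matches overlapped. Over all 35116 windows of 300 bases in the table, 7.71% held an AP-1 match, 22.8% an ETS match, 11.5% a TATA box, 1.85% a CRE and 45.0% an SP/KLF match. The matches describe letters in these windows and were not tied to the expression differences.

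The levels of different genes were compared per kilobase of exon. In the parental line the order was ST14 (86.1 ± 3.57 CPM per kb, SD, n = 3), SPINT2 (65.7 ± 4.04), SPINT1 (48.4 ± 3.09), PRSS8 (42.6 ± 1.04), TMPRSS2 (14.4 ± 0.132), PLAU (8.53 ± 1.24), TMPRSS4 (6.26 ± 0.345), PLAUR (1.43 ± 0.213), PRSS12 (0.437 ± 0.0959) and PLAT (0.00225). No neighbours in this order overlapped in their libraries. The length is that of all annotated exons of a gene together and can exceed that of the transcripts present. This error is not in the spread over libraries. For example, TMPRSS4 had 62.3 CPM over 9.948 kb and PLAU 25.1 CPM over 2.949 kb. The transmembrane protease ST14 and its inhibitors were the most abundant transcripts of the 10 in every line, and the secreted PRSS12 stayed next to last also where it rose, at 3.03 CPM per kb in R1 and 2.45 in R2. The distances between the lower genes shrank. In R1, TMPRSS4 (5.47 CPM per kb) and PLAU (5.45) overlapped, followed by PLAUR (4.11). In R2, TMPRSS4 (3.97) overlapped with PLAUR (3.84).

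Summed per kilobase, the 4 membrane-anchored proteases ST14, PRSS8, TMPRSS2 and TMPRSS4 reached 149 ± 4.48 CPM per kb (SD, n = 3) in the parental line, 134 ± 5.27 in R1 and 115 ± 4.56 in R2. The ranges over libraries were 146 to 154, 129 to 140 and 111 to 120 and did not overlap. ST14 made up 57.7% ± 0.723 of this sum in the parental line, 69.0% ± 1.19 in R1 and 72.5% ± 0.124 in R2, while the share of PRSS8 was 28.5% ± 0.654, 18.9% ± 0.821 and 15.3% ± 0.642. In the resistant lines, membrane-anchored protease transcripts were thus to a larger share those of matriptase. The Kunitz inhibitors SPINT1 and SPINT2 together had 114 ± 7.04, 119 ± 7.76 and 110 ± 3.69 CPM per kb in the 3 lines.

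Ratios within a library do not depend on its scaling. ST14 and SPINT1, protease and inhibitor, had a ratio of read counts of 2.15, 2.02 and 2.04 in the parental line, 2.08, 1.97 and 1.98 in R1 and 2.02, 2.08 and 2.02 in R2, with all 3 lines overlapping (exact two-sided permutation test, p = 0.4 and 0.5 against the parental line). The difference in log2 ratio was -0.04 in R1 and -0.02 in R2. The ratio of PRSS8 to SPINT1 was 0.74 ± 0.0312 (SD, n = 3) in the parental line, 0.399 ± 0.0361 in R1 and 0.311 ± 0.0155 in R2, with no overlap between any pair of lines. The ratio of TMPRSS2 to SPINT2 was 0.284 ± 0.0183, 0.212 ± 0.0151 and 0.21 ± 0.00843, lower in every resistant library than in every parental one. The ratio of ST14 to SPINT2 was 1.06 ± 0.0224, 1.14 ± 0.00313 and 1.09 ± 0.01, a small difference in which the libraries of the lines did not overlap.

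The ratio of PLAU to PLAUR counts was 3.16, 4.26 and 4.52 in the parental line, 0.822, 0.969 and 0.843 in R1 and 1.09, 0.789 and 0.905 in R2. Urokinase reads outnumbered receptor reads in each parental library, while in the resistant lines the counts were nearly equal. Per kilobase, PLAU and PLAUR together had 9.96 ± 1.3 CPM per kb (SD, n = 3) in the parental line, 9.56 ± 0.502 in R1 and 9.2 ± 0.73 in R2. The share of PLAUR in this sum was 14.5% ± 2.46, 43.0% ± 2.16 and 41.9% ± 3.89. Over the 15 ratio tests, comparisons without overlap had an exact two-sided permutation p of 0.1, the smallest that 3 against 3 libraries allow, and 0.15 after adjustment, so that none could pass a threshold of 0.05.

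**Figure D3:**
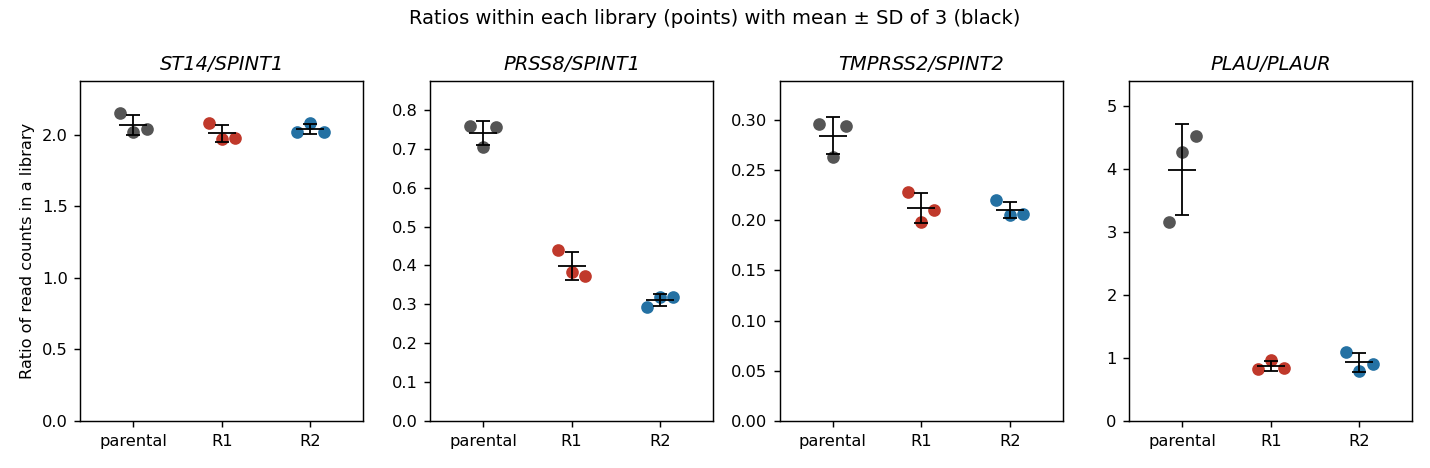
Ratio of read counts within each library (vertical axes, starting at 0) for ST14/SPINT1, PRSS8/SPINT1, TMPRSS2/SPINT2 and PLAU/PLAUR in LIM1215-parental (grey), R1 (red) and R2 (blue), with mean and SD in black. ST14/SPINT1 overlaps between the lines near 2.07, 2.01 and 2.04, while PLAU/PLAUR lies at 3.98 in the parental line and at 0.878 and 0.927 in the resistant lines.

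Between the resistant lines, 2 of the 10 genes were called, against 7.16% of all genes tested. Both were lower in R2 (background 3.77%): PRSS8 had a value of -0.52 on the log2 scale (SE 0.0617, adjusted p = 7.85e-07) and TMPRSS4 one of -0.46 (SE 0.0631, adjusted p = 6.58e-06). By edgeR's test, 0 genes were higher (background 3.39%) and 0 were DEGs (background 0.764%). At an unadjusted p under 0.05, 0 were higher, 5 lower and 0 past the fold change limit of a DEG. DESeq2 called 0 as higher, 2 as lower and 0 as DEGs. Shares of all genes under these other rules are not given here or below, so these counts have no background beside them. The median log2 fold change of the 10 genes was -0.12, beside -0.00 for all genes. ST14 (-0.14, adjusted p = 0.0402), SPINT1 (-0.17, adjusted p = 0.0535) and PRSS12 (-0.31, adjusted p = 0.0526) missed the threshold. Without R1 replicate 1, ST14 (-0.18, adjusted p = 0.00931) and SPINT1 (-0.23, adjusted p = 0.00489) passed it, and 4 genes were called. PLAUR (-0.10, SE 0.0955) and PLAU (-0.02, SE 0.114) were not called between the resistant lines.

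The neighbourhood on the chromosome was described for the DEGs PRSS12 and PLAUR, with the 5 nearest tested genes on each side. Around PRSS12, 1 of the 10 neighbours was called in the same direction in each line, SEC24D, with a log2 fold change of 0.49 in R1 and 0.98 in R2, short of the fold change limit of a DEG. Of all genes tested, 14.0% were called higher and 13.4% lower in R1, and 12.3% and 11.6% in R2. METTL14 was lower in R1 (-0.30). NDST3, which encodes a heparan sulfate enzyme and lies on the other side, was lower in both lines (edgeR adjusted p = 0.00685 and 0.00766). Its log2 fold change was -5.54 in each. Equal and extreme values of this kind arise at or near 0 counts, and the counts of NDST3 are not given here. Around PLAUR, CADM4, which encodes a cell adhesion molecule, was a DEG in the same direction in both lines, with log2 fold changes of 2.90 and 2.52. The share of DEGs over all genes tested was 5.14% in R1 and 4.82% in R2. KCNN4, a calcium-activated potassium channel, was higher in R1 (2.08, edgeR adjusted p = 0.00345) and was not called in R2 (0.48, adjusted p = 0.651). SMG9, which lies between PLAUR and KCNN4, had 0.04 and 0.03. On the side of CADM4, ZNF428 was lower in R2 (-0.33) and not called in R1 (-0.10). These positions are those of RefSeq.

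The other genes of the system were taken from 5 lists of 108 genes by function, of which 65 could be tested and 25 had 0 counts in all libraries. In R1, 39 of the 65 were called, 28 of them higher and 11 lower, with 9 DEGs, and in R2 36 were called, 20 higher and 16 lower, with 8 DEGs. This is 60.0% and 55.4% of those tested, beside 27.3% and 23.8% of all genes. The DEGs are 13.8% and 12.3%, beside 5.14% and 4.82%. Of all genes, 14.0% were higher and 13.4% lower in R1, and 12.3% and 11.6% in R2. The lists were chosen with earlier results of these data known, and the background includes genes with few counts. These shares are therefore a description and not a test of the lists. The median log2 fold change of the 65 genes was 0.24 and 0.06. Between the resistant lines 16 of the 65 were called (24.6%, background 7.16%), 4 higher (3.39%) and 12 lower (3.77%) in R2, with 0 DEGs (0.764%), and 1 gene was past the fold change limit of a DEG at an unadjusted p under 0.05 and 1 was a DEG by DESeq2. The number called fell to 7 without R2 replicate 2, 9 without R1 replicate 3 and 10 without R2 replicate 1.

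Of the other membrane serine proteases, 7 of 21 could be tested. Of these, 1 was called, higher in both lines (background 14.0% in R1 and 12.3% in R2). It was PRSS22 (tryptase epsilon), which is known as a secreted protease rather than a membrane-bound one, and had 2.17 ± 0.191 CPM (SD, n = 3) in the parental line, 7.1 ± 1.02 in R1 and 4.74 ± 0.817 in R2. Its log2 fold change was 1.70 (SE 0.178, edgeR adjusted p = 1.19e-08) and 1.11 (SE 0.189, edgeR adjusted p = 2.94e-05). Of the secreted trypsin-like and HTRA proteases, 12 were tested. In R1, 7 rose and 1 fell (background 14.0% and 13.4%), and in R2 3 rose and 1 fell (12.3% and 11.6%). Kallikreins had the largest increases among them. KLK10 had 10.5 ± 1.7 CPM in the parental line, 105 ± 7.33 in R1 and 113 ± 3.03 in R2, a log2 fold change of 3.34 (SE 0.0826, edgeR adjusted p = 9.75e-22) and 3.44 (SE 0.0823, edgeR adjusted p = 4.72e-22). KLK7, a chymotrypsin-like kallikrein of the skin, had 0 counts in the 3 parental libraries, 97 counts in all in R1 and 79 in R2. Set against a floor of 3 counts over the parental libraries together, it was at least 33.4-fold higher and at least 27.2-fold higher.

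Of the serine protease inhibitors, 12 were tested. In R1, 6 rose and 3 fell (background 14.0% and 13.4%), and in R2 5 rose and 4 fell (12.3% and 11.6%). SERPINI1 (neuroserpin), an inhibitor of tissue-type plasminogen activator, had 7.43 ± 0.609 CPM (SD, n = 3) in the parental line, 4.44 ± 0.407 in R1 and 1.57 ± 0.344 in R2. It fell by 0.74 and 2.23 on the log2 scale (SE 0.15 and 0.18, edgeR adjusted p = 0.000249 and 7.71e-11). SPINK1, an inhibitor of trypsin, had 2.62 ± 0.366, 0.619 ± 0.399 and 1.11 ± 0.311 CPM. Its log2 fold change was -2.05 (edgeR adjusted p = 1.55e-05) in R1 and -1.22 (edgeR adjusted p = 0.00212) in R2, where the call was lost without R2 replicate 2 (adjusted p = 0.0233).

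The list of plasminogen, its binding sites and clearance receptors had 18 tested genes. Of these, 7 rose and 5 fell in R1 (background 14.0% and 13.4%), and 4 rose and 7 fell in R2 (12.3% and 11.6%). In R2, 7 were lower than in R1 (background 3.77%). PLG, the gene of plasminogen, had 0 counts in all 9 libraries, which allows up to 0.217 CPM in a library. Endocytic receptors that clear urokinase from the cell surface moved in opposite directions. LRP1 had 30.4 ± 2.58 CPM (SD, n = 3) in the parental line, 17.2 ± 1.75 in R1 and 11.5 ± 0.337 in R2, a log2 fold change of -0.82 (SE 0.0891, edgeR adjusted p = 2.21e-08) and -1.40 (SE 0.0943, edgeR adjusted p = 1.78e-12). VLDLR had 6, 0 and 0 counts in the parental libraries, 35, 33 and 44 in R1 and 28, 10 and 33 in R2. It rose in both lines (edgeR adjusted p = 1.08e-06 and 4.53e-05). VTN (vitronectin), a matrix protein that the urokinase receptor binds, had 2.75 ± 0.196, 2.47 ± 0.341 and 0.904 ± 0.609 CPM. Its decrease was called in R2 (-1.61, SE 0.301, edgeR adjusted p = 0.000108), and in R1 the value was -0.15 (adjusted p = 0.707).

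Of the substrates and targets, 16 were tested. In R1, 7 rose and 2 fell (background 14.0% and 13.4%), and in R2 7 rose and 4 fell (12.3% and 11.6%). F2RL1, the gene of protease-activated receptor 2, was well expressed with 147 ± 1.83 CPM (SD, n = 3), 141 ± 2.42 and 141 ± 3.58 in the parental line, R1 and R2, and was not called (-0.06 in both, adjusted p = 0.328 and 0.363). F2R, the gene of the thrombin receptor, had 2.57 ± 0.272, 1.2 ± 0.143 and 0.932 ± 0.266 CPM and fell in both lines, by 1.08 and 1.45 on the log2 scale (edgeR adjusted p = 0.00105 and 7.14e-05). MET, the receptor of hepatocyte growth factor, had 260 ± 4.51, 282 ± 8.58 and 316 ± 7.15 CPM, a log2 fold change of 0.12 (adjusted p = 0.0336) in R1 and a called increase of 0.28 (edgeR adjusted p = 5.1e-06) in R2. HGF itself had 0 counts in all libraries. Among substrates with low levels, PDGFC was lower in R2 (-1.53, edgeR adjusted p = 0.00268). PDGFD was higher in R1 (1.16, edgeR adjusted p = 0.00525). Both calls were lost with DESeq2's test (adjusted p = 0.0119 and 0.0178) and without single libraries: PDGFC without R2 replicate 1 (0.0154) or 3 (0.0186), and PDGFD without parental replicate 2 (0.0178) or 3 (0.0198) or R1 replicate 1 (0.022) or 3 (0.0372).

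**Figure D4:**
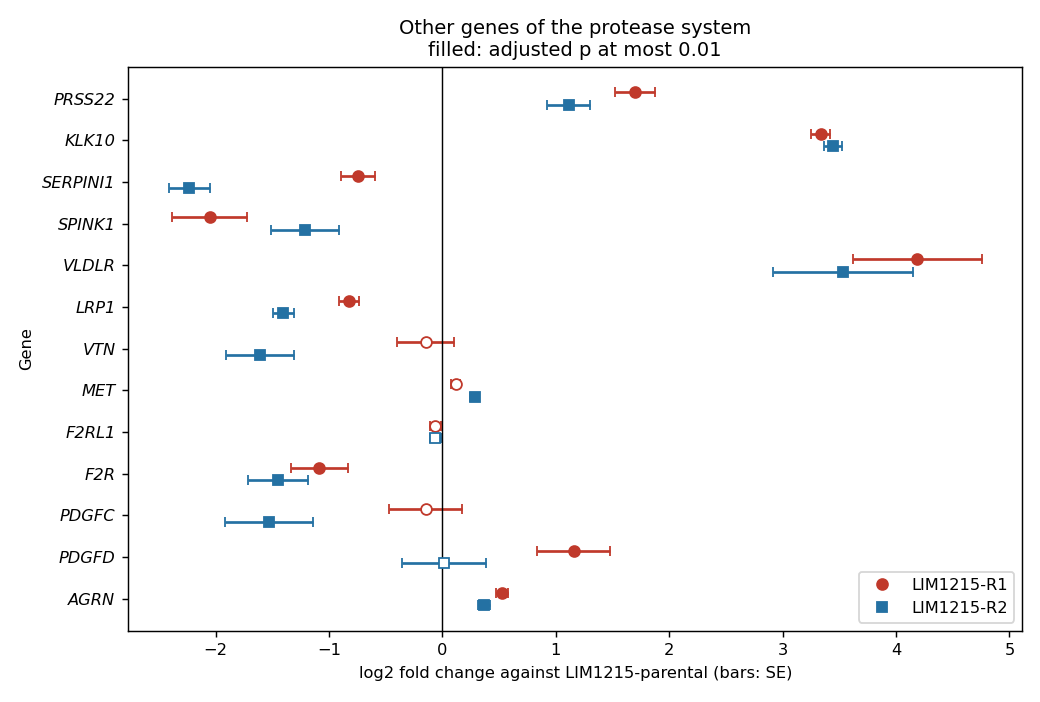
Log2 fold change against the parental line (horizontal axis) of other genes of the protease system in R1 (red circles) and R2 (blue squares), with the SE as bars and filled symbols for an adjusted p of at most 0.01. KLK7 (0 parental counts) is not drawn. VLDLR and KLK10 (3.34 and 3.44) lie to the right, SERPINI1, LRP1 and F2R to the left, and F2RL1 at -0.06.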

How the data were processed

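RNA from LIM1215-parental, LIM1215-R1 and LIM1215-R2 was sequenced as stranded poly(A) libraries, 3 per line. Per the labels, reads were mapped with STAR to the hg38 build, and HTSeq 0.9.1 assigned them to genes in its reverse-strand mode. The authors deposited these raw counts, 1 table per library, and they were used as they stand. The gene annotation was not given in the sources used here.

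Libraries were grouped by their labels. With R 4.3.3, edgeR 4.0.16 (limma 3.58.1) fitted 1 quasi-likelihood model to 19102 genes, those whose counts summed to 10 or more over the 9 libraries, after TMM scaling, with Benjamini-Hochberg adjustment over all of them. SEs were derived from the test statistic. Exon lengths and positions came from GENCODE v44 on GRCh38, and neighbours and start-site windows from RefSeq. Read counts of overlapping genes on the same strand cannot be told apart; among the 10 genes this touches SPINT2 and PLAUR. The model was tested on counts simulated with independent libraries, which cannot show how technical replicates affect the p-values. The genes and lists were chosen with earlier results of these data known. Of each list, up to 4 genes were named that were called, changed by 1 or more on the log2 scale and reached 1 CPM, with MET, F2RL1, PLG and HGF named whatever their values. Replicates differed by more than sampling noise (chi-square per degree of freedom 1.89 to 6.58). Alternatives were other filters, DESeq2 1.42.0 size factors and Wald test, total counts, 6 libraries only, a replicate block, stricter fold changes and each library left out. A few genes that the rule names are not reported here. Protein sequences were not analysed here.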

Additional observations from a re-analysis of the deposited data

Results flagged for a closer look

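The effects against LIM1215-parental differed between the resistant lines for 6 of the genes named, by the edgeR test of LIM1215-R2 against LIM1215-R1 in the fit over all 9 libraries. PRSS8 (log2 fold change -0.52, adjusted p = 7.85e-07) and TMPRSS4 (-0.46, adjusted p = 6.58e-06) were lower in LIM1215-R2, in 3 of 3 libraries below every library of LIM1215-R1. SERPINI1 (-1.49, adjusted p = 3.86e-06), LRP1 (-0.58, adjusted p = 0.000189) and VTN (-1.46, adjusted p = 0.00156) were lower in LIM1215-R2 as well. MET (0.17, adjusted p = 0.00811) was higher in LIM1215-R2. Of all genes tested, 7.16% were called between these 2 lines. The libraries of the 2 resistant lines did not overlap for any of the 6 genes. These genes were picked by that call, and the share of all genes without overlap was not computed, so this is a description only. The call of VTN was lost without LIM1215-R1 replicate 3 (adjusted p = 0.0152), LIM1215-R2 replicate 1 (0.0193) or LIM1215-R2 replicate 2 (0.0226), and that of MET in 10 of 16 alternatives.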

How the results depend on the processing

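Of 476 log2 fold changes of the 10 genes under the alternatives, 457 kept their direction and side of the threshold, 9 passed it newly and 10 changed sign, and of 499 for the other named genes 473 kept both, 22 lost the call and 4 changed sign. Requiring a change of 1 or more on the log2 scale in addition left 2 of the 10 genes called in LIM1215-R1, 3 in LIM1215-R2 and 0 between the resistant lines, and requiring 1.5 left 2, 1 and 0, as follows from the stricter rule. With total counts, 1 of the 10 genes was a DEG in LIM1215-R1. With each library left out in turn, 1 to 2 genes were DEGs in LIM1215-R1 (1 without parental replicate 3) and 1 to 2 in LIM1215-R2 (2 without parental replicate 1), 2 to 4 genes were called between the resistant lines (4 without LIM1215-R1 replicate 1), and 7 to 18 of the other genes of the system. The replicate numbers were not taken as pairs, which needed a correlation over 0.1 in every same-number pair: 4 of 9 had one (range -0.178 to 0.558). However, 6 of 9 libraries matched best with their own number, a hint from the data and not from the design. With the replicate block, 4 genes were called between the resistant lines, with ST14 and SPINT1 added, 7 in LIM1215-R1, with TMPRSS4 (adjusted p = 0.00806) and SPINT1 (0.00807) added, and 6 in LIM1215-R2. Shares of all genes called under the alternatives are not given, so these counts have no background beside them. Sign changes occurred in values that were not called. They were SPINT2 in LIM1215-R1 with total counts (-0.0324) and with a library left out (-0.037 to 0.0538), SPINT1 in LIM1215-R2 (-0.0567 to 0.0317), PLAU (-0.12 to 0.0835) and PLAT (-0.27 to 0.33) between the resistant lines, PDGFC (-0.30 to 0.0522) in LIM1215-R1, and PDGFD in LIM1215-R2 with total counts (-0.00581) and with a library left out (-0.40 to 0.20). The cause was not tested. Scaling moved the median of all genes by less than 0.1. PLAT could not be fitted with at least 10 counts in every library. Depth limits PLAT and the parental values of VLDLR and KLK7, which rest on few or 0 counts.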
